A study of Mus musculus with 4 samples.

Results

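The genes described here encode the protein components of the cytosolic ribosome. They were chosen by symbol, as the genes named Rpl or Rps with a number, together with Rplp0 to Rplp2 and Rpsa, and without the Rps6k kinases. The rule found 82 genes among the 19040 symbols shared by the frontal cortex and midbrain count tables, 50 of the large subunit (Rpl and Rplp) and 32 of the small subunit (Rps and Rpsa). A few are paralogs of a standard subunit (Rpl3l, Rpl7l1, Rpl22l1, Rpl39l and Rps27l) and were kept, since the symbol rule includes them.

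As background, every ribosome holds one copy of nearly every one of these proteins, and the cell makes them in matched amounts from many genes scattered over the genome. Their messages start with a run of pyrimidines, the TOP tract, through which mTOR signaling and the RNA-binding protein Larp1 adjust how strongly they are translated. The messages are short, stable and among the most abundant of a cell, so they take a large part of single-cell counts.

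The material was 4 single-cell libraries of brain tissue from mice aged 6 to 9 months, dissociated with a protocol for glial and vascular cells. Frontal cortex and midbrain were each taken from mice of strain Hua-Syn(A53T), labelled transgenic, and from C57BL/6 wildtype littermates, giving 1 library for each pairing of region and genotype. The design text states 3 mice per group, with both regions from the same mice, but the cell tables name no mouse, so the pooled animals of a group were 1 sample and no difference has a replicate check. The promoter of the transgene is not given in the sources used here. The libraries held 3775 to 7635 cells and 30712684 to 56588233 UMIs (unique molecular identifiers, each counting 1 captured molecule), and any pair of them shared 3 to 15 cell barcodes.

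Cell types are the authors' labels. All 10 of 10 astrocyte markers were highest in cells labelled AC in every library, all 10 of 10 microglial markers in MG, all 10 of 10 endothelial markers in EC and all 5 of 5 macrophage markers in MAC, so these 4 are called by those names. All 7 of 7 markers of other blood cells were highest in MNC in the wildtype midbrain library. The remaining labels (PC, SMC, CPC, OPC, OLG, EPC, imNeur, mNeur) are printed as deposited. Some went against their name: OPC held all 7 of 7 fibroblast markers at their highest in both wildtype libraries, along with 6 of 7 markers of oligodendrocyte progenitors in frontal cortex and 0 of 7 in midbrain. imNeur held all 7 of 7 markers of oligodendrocyte progenitors in wildtype midbrain, where it held 0 of 9 neuronal markers, and 4 of 9 neuronal markers in both frontal cortex libraries.

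The RefSeq promoter table (GRCm38.p6) held 62 of the 82 genes. The sequences below run from 40 bases before to 20 bases from the annotated RefSeq start, 5′ to 3′ on the gene's strand, for 5 genes described below, each higher by 1.2 times in the transgenic library in all 7 midbrain types compared. Capitals mark the longest run of at least 5 C or T near the start, the place of the TOP tract, and a sequence without capitals has no such run there.
Rpl35: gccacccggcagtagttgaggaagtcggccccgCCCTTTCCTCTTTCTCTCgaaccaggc
Rpl38: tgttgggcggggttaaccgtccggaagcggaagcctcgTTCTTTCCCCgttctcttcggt
Rps21: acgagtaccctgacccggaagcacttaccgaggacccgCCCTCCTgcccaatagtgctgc
Rps28: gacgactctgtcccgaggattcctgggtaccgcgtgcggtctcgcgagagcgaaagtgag
Rpl41: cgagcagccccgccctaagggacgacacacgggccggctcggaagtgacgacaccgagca
The windows lie at chr2:39005112-39005171 (minus strand) for Rpl35, chr11:114668540-114668599 (plus) for Rpl38, chr2:180257339-180257398 (plus) for Rps21, chr17:33824543-33824602 (minus) for Rps28 and chr10:128549149-128549208 (minus) for Rpl41. In Rpl35 the run is 18 bases long and spans the start, whereas the Rps28 and Rpl41 windows hold none at the annotated start, which can differ from the start used in these cells. Over the 300 bases from 250 before to 50 after the start, the letters CCGGAAG were found on either strand in 25 of 62 of the ribosomal protein promoters (40.3%), against 9.12% of 27025 promoters of all genes. The letters CTCTTTC, a pyrimidine run that can overlap the TOP tract, were found in 17 of 62 (27.4%), against 8.01% of all promoters. The start base was C with at least 4 pyrimidines after it in 12 of 62 (19.4%), against 2.49% of all promoters, and AAGATGGC was found in 5 of 62 (8.06%), against 2.88%. TATAAA was found in 6 of 62 (9.68%), against 14.2%. These matches describe letters only.

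The share of UMIs from ribosomal protein genes separated the cell types. In astrocytes it was 3.04% in transgenic and 2.80% in wildtype frontal cortex, and 2.13% and 2.12% in midbrain. Astrocytes thus had the lowest share of any type with at least 50 cells, in all 4 libraries. In microglia the share was 9.85% and 8.24% in transgenic and wildtype frontal cortex, and 9.57% and 8.93% in midbrain. Endothelial cells lay close together, from 9.83% to 10.3%. Macrophages at the brain's borders had 14.8% and 13.6% in transgenic and wildtype frontal cortex, and 16.1% and 14.1% in midbrain. MNC cells, counted in wildtype midbrain, had 27.7%, the highest of all. PC cells had 4.93% to 5.49% and SMC cells 8.55% to 9.44%. Exact 95% intervals cover counting error only and were narrow, such as 3.02% to 3.05% in transgenic frontal cortex astrocytes. Neighbors in the order of types could not all be separated, since the library ranges of SMC and MG overlapped, and those of MG and EC met at 9.85% and 9.83%. Within each library EC lay above MG and MAC above EC.

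**Figure D1:**
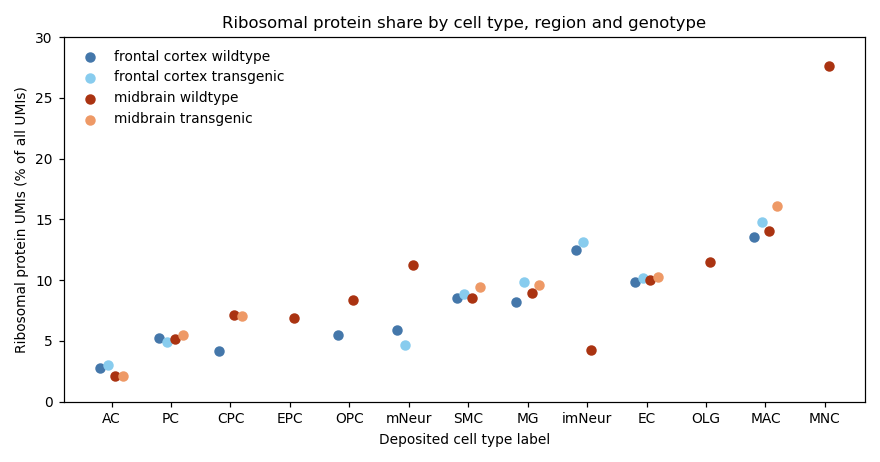
Share of UMIs from the 82 ribosomal protein genes (vertical axis, percent of all UMIs) for each deposited cell type label with at least 50 cells in the library. Each point is 1 library. AC lies lowest, from 2.12% to 3.04%, and MNC highest at 27.7%, while imNeur and mNeur change place between regions.

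Of the 82 genes, 78 had their lowest mean level in astrocytes and 76 their highest in MNC. Each level is a label's mean over its libraries with at least 50 cells, from both regions where present. Levels are per all UMIs, so these counts largely restate the summed shares above. The same count over all genes was not made. The exceptions to the MNC maximum were Rps29 in macrophages, Rpl22l1 in OLG, Rps27l in CPC, Rpl7l1 and Rpl39l in microglia, and Rpl3l, a striated muscle paralog, in astrocytes at under 1 CPM (UMIs of the gene per 1000000 UMIs of the cells summed). The genes highest in MNC relative to their own median over types were Rpl12, a stalk-base protein, and Rpsa, which also binds laminin. Rpl12 stood at 4439.8 CPM in MNC, 630.2 at the median type and 192 in astrocytes. Rpsa stood at 4838, 788 and 243 CPM. Rps18, Rps15a, Rpl32 and Rplp0 were also among the most raised, with maxima 2.20 to 2.25 log2 units above their medians. As proportions of the ribosomal protein UMIs, the MNC values lay less far above the median type. They were higher by 0.91 log2 units for Rpl12, 0.68 for Rpsa, 0.50 for Rps18, 0.61 for Rps15a and 0.43 for Rpl32. Rplp0 had its highest proportion in OLG (1.65%, median 1.01%). Large and small subunit genes did not scale alike. The summed UMIs of large over small subunit genes gave a ratio of 1.36 to 1.43 in astrocytes, 1.24 to 1.25 in microglia, 1.14 to 1.19 in macrophages and 1.12 in MNC.

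The makeup of the ribosomal protein UMIs also varied with type. Rpl41 made up 3.90% of them in CPC, 1.75% at the median type and 1.04% in MNC. Rps29 made up 4.89% in macrophages and 2.27% at the median type, and Rps28 1.33% and 0.80%. Rpl38 was highest in endothelial cells (2.18%, median 1.19%), Rpl13 and Rps26 in imNeur (4.86% and 1.49%) and Rplp1 in OLG (3.90%, median 2.15%). These proportions are means over a label's libraries in the same way. The MNC and OLG values rest on wildtype midbrain alone, whereas the macrophage and endothelial means take in all 4 libraries. Rpl41, Rps29, Rps28 and Rpl38 belong to a group of 11 genes, described below, whose proportion differed between the midbrain libraries. In macrophages that group made up 20.7% in transgenic and 14.9% in wildtype midbrain, and in MNC 12.6%. The mix of libraries thus enters the contrasts between types for these genes. The imNeur label held progenitor markers in wildtype midbrain and some neuronal markers in frontal cortex, so its means describe no single cell type. The share of ribosomal protein UMIs in CPC was lower in wildtype frontal cortex than in either midbrain library. The CPC means thus cover libraries that differ. 3 paralogs had their lowest proportion in MNC, where Rps27l made up 0.044% against 0.27% at the median type, Rpl7l1 0.014% against 0.081% and Rpl22l1 0.26% against 0.54%.

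Cells of a type differed widely as well. In wildtype frontal cortex the share per astrocyte ran from 1.05% at the 5th percentile to 6.18% at the 95th, with a median of 2.40% over 1067 cells. Per microglial cell it ran from 3.1% to 12.4%, with a median of 7.63% over 1912 cells. The 2 ranges overlapped although the medians lay far apart.

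Within astrocytes the levels of single members spanned a wide range. Library counts were taken at the 3′ end, so each molecule counts once and no length scaling applies, but processed pseudogenes make levels between these genes uncertain. Rps29, a small zinc-binding protein of the small subunit, was highest, at 766 and 734 CPM in transgenic and wildtype frontal cortex and 679 and 456 in midbrain. Rplp1, part of the acidic stalk that recruits elongation factors, stood at 764, 612, 442 and 436 CPM in the same order. Rpl41, the smallest protein of the ribosome, stood at 697, 528, 561 and 412 CPM. Rpl13, Rps21, Rps24 and Rpl37 were also among the highest. The low end held Rpl36a, Rpl29, Rpl4, Rps27l, Rpl13a and Rpl7l1, with means of 159.9 down to 42.4 CPM, and Rpl3l and Rpl39l at under 1 CPM in every library. In all, 80 of the 82 reached 20 CPM in astrocytes, and the 10 highest genes made up 20.6% of the ribosomal protein UMIs.

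Paralogs were minor beside their partners, except one pair. In wildtype frontal cortex astrocytes Rpl7l1, a relative of Rpl7, stood at 43.9 CPM against 281 for Rpl7. Rps27l stood at 100.4 against 413 for Rps27, and Rpl3l at 0.471 against 366 for Rpl3. Rpl22l1, the paralog of Rpl22, was close to its partner, at 170.4 against 210.3 CPM in astrocytes, but in microglia of the same library at 251 against 593. In the midbrain astrocytes Rpl22l1 stood at 143 and 159.7 CPM in transgenic and wildtype, beside 154 and 156 for Rpl22, so there the 2 genes had nearly the same level.

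The genotype comparison asked whether these genes differ between transgenic and wildtype mice within a cell type and region. In 12 of 15 pairs of type and region the share was above that of wildtype, counting pairs with at least 50 cells in both libraries. Log2 ratios ranged from -0.32 to 0.26. The largest rise was in frontal cortex microglia (log2 ratio 0.26, 95% interval 0.25 to 0.26). The values for macrophages were 0.12 in frontal cortex and 0.19 in midbrain, for midbrain SMC 0.14 and for midbrain microglia 0.10. Endothelial cells differed by 0.05 and 0.04. Midbrain astrocytes differed by 0.01, with an interval that included 0. The lower values were mNeur in frontal cortex (-0.32), PC in frontal cortex (-0.08) and CPC in midbrain (-0.01). In mNeur the pooled share was 4.69% in transgenic and 5.88% in wildtype, over 80 and 67 cells, but the median cell had 5.63% and 5.62%. The intervals cover counting error, and the difference between animals was not measured.

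For single genes, a member was counted when its CPM differed by at least 1.2 times (0.26 on the log2 scale), with an exact 95% interval of the ratio that left out 0 and at least 20 CPM in 1 of the libraries. In frontal cortex microglia 40 of the 80 genes at that level were higher in the transgenic library and 0 were lower, at a median log2 ratio of 0.26. Of all 6573 genes at 20 CPM in microglia, 6.15% were higher and 10.2% lower by this rule (median -0.05), and of genes at 200 CPM 11.8% were higher. Of the 80 members, 79 were above 0, Rpl7l1 being the exception at -0.11. The largest ratio was that of Rpl27, a large subunit protein, with 518 CPM in the transgenic and 335 in the wildtype library (0.63, interval 0.57 to 0.68). Rpl35, at the exit of the tunnel through which new peptides leave, stood at 695 and 473 CPM (0.55, interval 0.51 to 0.60), and Rpl37 at 1745 and 1339 CPM (0.38). Rpl22l1 (0.05) and Rps3 (0.10) were among the smallest. With the mean of per-cell CPM, which gives each cell the same weight, 12 members passed the fold in place of 40, all higher. No interval was required for these 12. The share was higher in all 4 microglial clusters of frontal cortex, by 0.15 to 0.33. Mitochondrially encoded genes moved with it, with 12 of 13 higher in these microglia (3.00% against 2.22% of UMIs). Erythroid marker UMIs were also higher, at 709 against 44.1 CPM, and in each of the 4 clusters: 574 against 22.3 CPM in cluster 2, 375 against 23.8 in cluster 3, 687 against 22.7 in cluster 7 and 2875 against 318 in cluster 8. The share was 11.002% against 8.73% in cluster 2. In cluster 8 it was 8.39% against 7.58%, where the median cell had 2125 against 3375.5 UMIs. With mitochondrially encoded genes left out of the total, the log2 ratio of the share was 0.27, beside 0.26 with them. Beyond this, the part of both gene groups in the result was not tested.

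In frontal cortex astrocytes 10 of 80 members were higher and 0 lower, against 16.3% of all 7120 genes at 20 CPM higher and 14.3% lower, and 18.3% of genes at 200 CPM higher, so the members' 12.5% was below the background. The genes were Rpl41 (697 against 528 CPM, log2 ratio 0.40), Rpl27 (216 against 165, 0.39), Rps26 (353 against 276, 0.35), Rplp1, Rps27l, Rps4x, Rpl37, Rps28, Rpl18 and Rps21, of which 5 lay between 0.26 and 0.28. Rpl10 (-0.14), Rps3 (-0.11) and Rpl5 (-0.08) were lowest. Scaling by TMM or DESeq2 size factors each left 5, and the cells under 10% mitochondrial UMIs gave 2 higher and 1 lower. Within the clusters the pooled rise in share was not seen: it was 2.30% against 2.57% in cluster 1, 4.99% against 5.47% in cluster 4 and 1.90% against 2.04% in cluster 22, transgenic against wildtype, and higher in the transgenic library only in cluster 11 (3.81% against 3.65%). Cluster 4, which has a high share and a median of 2287 UMIs per cell, made up 35.6% of transgenic and 19.2% of wildtype astrocytes. Mitochondrially encoded UMIs were 9.30% against 5.79% in these astrocytes, and erythroid marker UMIs 314 against 20.1 CPM. With the clusters weighted alike the direction turned, to 3.25% against 3.43%. By the fold and CPM limits without the interval, 0 members were then higher and 2 lower.

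**Figure D2:**
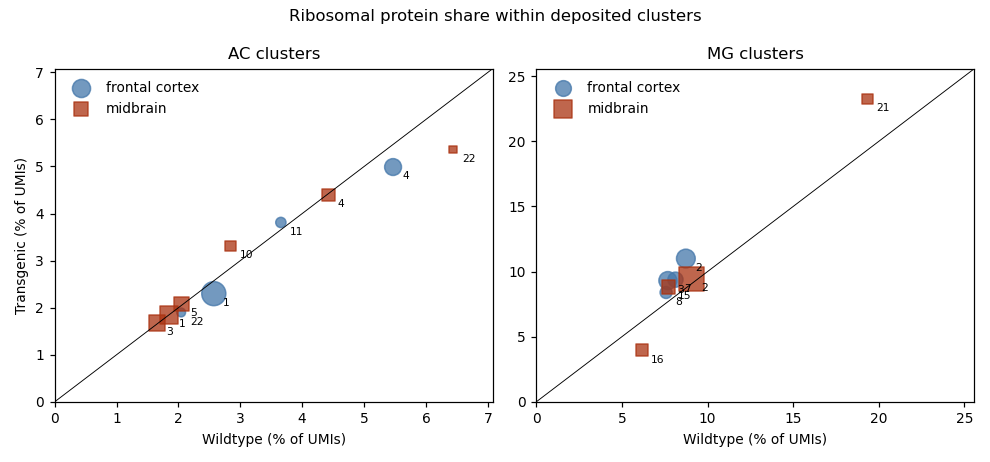
Share of UMIs from ribosomal protein genes within each deposited cluster of AC and MG, wildtype on the horizontal and transgenic on the vertical axis, in percent. Numbers are the authors' cluster numbers, point area follows the cluster's part of its type, and the line marks equality. In frontal cortex 3 of 4 AC clusters lie below the line, and all 4 MG clusters above it.

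In midbrain microglia 16 of 80 members were higher and 0 lower (all genes at 20 CPM, 6.63% higher and 9.24% lower, and at 200 CPM 9.24% higher), and the median was 0.02, so the rise was carried by a few genes. In midbrain the clusters differed among themselves. Cluster 16, with erythroid marker UMIs of 19687 against 58.7 CPM, had a share of 3.95% in transgenic and 6.16% in wildtype (log2 ratio -0.64), cluster 15 of 8.84% and 7.71%, and cluster 2 of 9.44% and 9.07%. Cluster 21, a group of 81 and 97 cells at a median of 2023 and 1871 UMIs, had 23.3% and 19.3%, the highest of any astrocyte or microglial cluster. Its microglial markers summed to 50324 and 47932 CPM, above those of cluster 2 (40156 and 39198 CPM). Erythroid marker UMIs in midbrain microglia were 1699.6 against 47.4 CPM, and their part in the result was not tested.

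In endothelial cells 2 of 80 members were higher and 0 lower in frontal cortex (all genes, 7.23% and 5.73%, and at 200 CPM 5.55% higher), Rpl27 (656 against 466 CPM, 0.49) and Rpl35 (785 against 636, 0.30). With TMM or DESeq2 scaling 1 of them passed. In midbrain 14 were higher and 0 lower (all genes, 8.25% and 6.48%, and at 200 CPM 9.45% higher). Macrophages of midbrain had 21 higher and 0 lower (all genes, 6.49% and 7.44%, and at 200 CPM 18.2% higher), among them Rps28 (2815 against 1374 CPM, 1.03) and Rpl38 (2546 against 1369, 0.90). In cells labelled mNeur in frontal cortex 50 of 80 were lower and 0 higher (all genes at 20 CPM, 8.86% lower and 8.12% higher, and at 200 CPM 31% lower). This count is of pooled cells, and the median share per cell was nearly equal, as given above. Rps27l had the lowest ratio there, at -1.20, which is below that of any other member.

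Midbrain astrocytes had a share near equal in both genotypes but not a uniform composition. Here 10 of 80 members were higher and 2 lower (all genes at 20 CPM, 9.51% higher and 6.54% lower, and at 200 CPM 6.91% higher), and the median was -0.07. Median and share thus differ in sign. With the clusters weighted alike 10 were higher and 11 lower, and with the mean of per-cell CPM 13 were higher and 0 lower. These 2 alternatives used the fold and CPM limits without the interval, so they are looser than the main rule. The highest were Rps28, at 218 against 125 CPM (0.80), Rps29 at 679 against 456 (0.57) and Rpl38 at 402 against 273 (0.56). The lowest were Rps6, the substrate of the S6 kinases, at 133 against 162 CPM (-0.29), Rpl3, which lies at the peptidyl transferase center, at 224 against 269 (-0.26), and Rps3, which also has roles in DNA repair, at 196 against 231 (-0.24).

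Some genes were higher by 1.2 times in both regions of a type. In astrocytes 4 were: Rpl41, Rpl37, Rps21 and Rps28. In microglia there were 12: Rps28, Rpl35, Rpl27, Rpl41, Rpl37, Rpl13a, Rps21, Rpl39, Rpl37a, Rps26, Rpl36a and Rpl36. In endothelial cells Rpl27 and Rpl35 were, in macrophages these and Rpl36a and Rplp2, in SMC Rpl27 and Rpl35 and in PC Rpl35. Of all genes at 20 CPM in both regions, 3.37% were higher in both in astrocytes, 1.62% in microglia, 3.00% in endothelial cells, 0.99% in macrophages, 0.526% in SMC and 0.529% in PC. The members' counts in astrocytes and endothelial cells (4 and 2 of 80) were near that background. In a single region, 4.62% of all genes were higher in frontal cortex macrophages, 6.01% and 5.53% in SMC of frontal cortex and midbrain, and 4.77% and 4.41% in PC. Rpl27 stood at 216 and 165 CPM in frontal cortex astrocytes (transgenic, wildtype) and 154 and 137 in midbrain, and Rpl35 at 212 and 183, then 165 and 116. Both genes were higher in the transgenic library in 14 of the 15 pairs of type and region and above the members' median in 15 of 15. Rpl41, Rpl37, Rpl39 and Rpl36a were above 0 in 14 of 15 and above the members' median in 15 of 15 as well. Rpl35a and Rpl13a were above 0 in 14 of 15 and above the members' median in 13. Such records were not counted over all genes. The types of a region come from the same 2 libraries, so the 15 pairs are not independent.

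**Figure D3:**
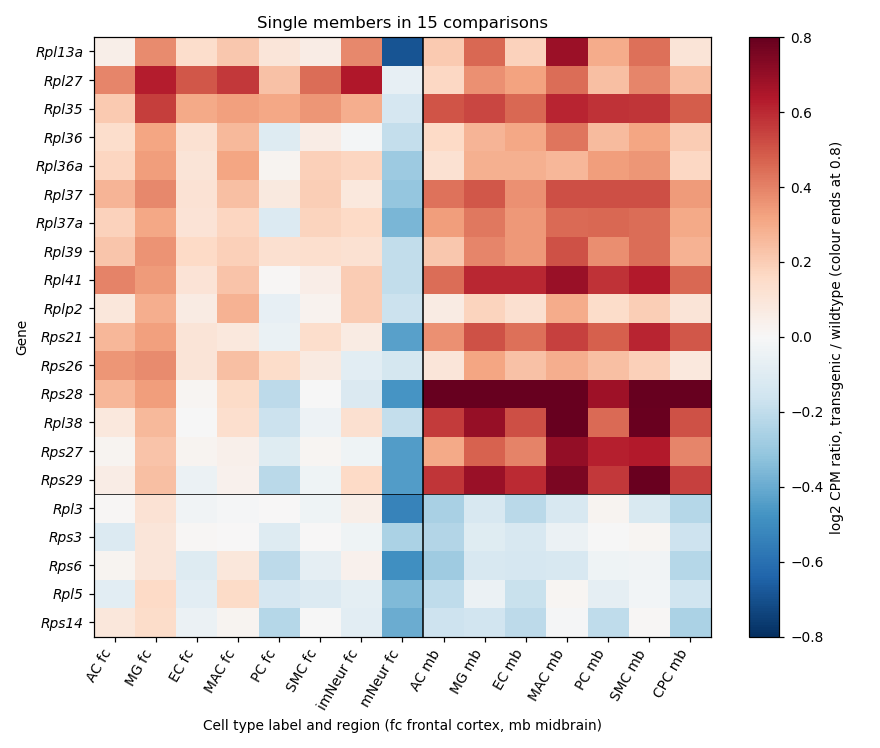
Color gives the log2 CPM ratio of transgenic over wildtype for 21 genes (rows) in the 15 pairs of type and region (columns), with colors ending at 0.8. The genes above the line include those higher by 1.2 times in both regions of a type, and Rps28 is highest in all 7 midbrain columns. The 5 genes below the line were among the lowest in a type.

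Most of the members with the shortest coding sequences were higher in the transgenic midbrain library, in each of the 7 types compared. Coding length came from GENCODE M21 (GRCm38), and a limit of 300 nt was set after the values were seen. It holds 11 genes: Rpl41 (75 nt), Rpl39, Rpl39l, Rps29 (168 nt), Rps28 (207 nt), Rpl38 (210 nt), Rps21, Rps27, Rps27l, Rpl37a and Rpl37. Among the 10 that reached 20 CPM, 8 were higher by 1.2 times in midbrain astrocytes, 9 in microglia, 9 in endothelial cells and 10 in macrophages, while in frontal cortex 5, 6, 0 and 0 were. Of the 70 longer members, 2 were higher in midbrain astrocytes, 7 in microglia, 5 in endothelial cells and 11 in macrophages, so about as many longer as short members passed in macrophages. Rpl35 was one of them, at 0.53 in midbrain microglia and 0.61 in macrophages. In midbrain astrocytes the 10 short members had a median log2 ratio of 0.40, the 39 between 300 and 500 nt of -0.06 and the 31 above of -0.09. In microglia the 3 medians were 0.50, 0.03 and -0.05. The rank correlation of log2 ratio with coding length across the 80 genes, which are not independent replicates, was -0.50 in astrocytes, -0.68 in microglia and -0.57 in endothelial cells of midbrain. In frontal cortex it was -0.45, -0.58 and -0.30. Across other genes at 200 CPM, without mitochondrially encoded genes, the correlation was -0.18, -0.25 and -0.27 in frontal cortex. In midbrain it was 0.11, 0.001 and -0.18 for those genes. Other genes under 300 nt at 200 CPM had median log2 ratios of 0.14, 0.20 and 0.11 in frontal cortex, beside 0.24, 0.32 and 0.07 for the short members.

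**Figure D4:**
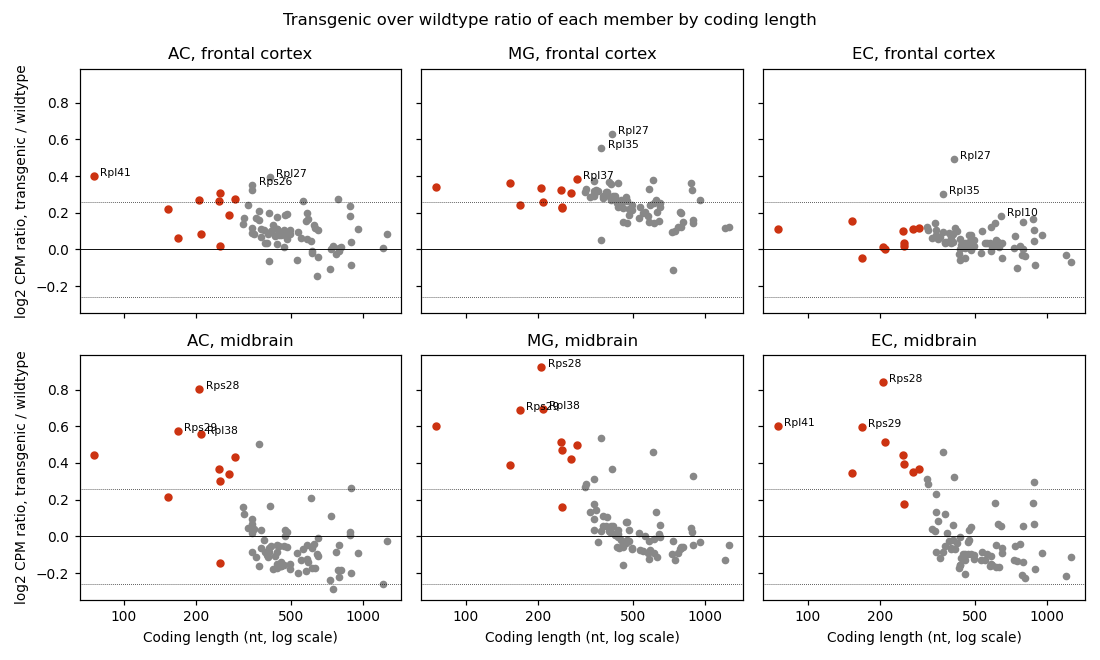
Log2 CPM ratio of transgenic over wildtype (vertical axis) of each of the 80 genes at 20 CPM against coding length in nt (horizontal, log scale), for AC, MG and EC in frontal cortex (top) and midbrain (bottom). Red points are genes under 300 nt, dotted lines mark 1.2 times, and the 3 highest genes are named. In midbrain most red points lie above the upper dotted line, and Rps27l in AC lies at -0.14.

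Taking the short members as a share of the ribosomal protein UMIs showed each library's own level. In astrocytes the share was 18.5% in transgenic midbrain, 13.9% in wildtype midbrain, 15.9% in transgenic frontal cortex and 14.98% in wildtype frontal cortex. In microglia the values were 18.2%, 13.1%, 15.5% and 15.05%, and in endothelial cells 19.1%, 14.1%, 16.01% and 15.9%. Thus the transgenic midbrain library was above both frontal cortex libraries and the wildtype midbrain library below both, in each of these types. All 7 types compared in midbrain had the same direction, with log2 ratios of 0.41 to 0.48, whereas the 8 frontal cortex values lay between -0.03 and 0.08. The summed UMIs of the other members had log2 ratios of -0.10 to 0.09 in midbrain. The level in midbrain astrocytes without cells of 10% mitochondrial UMIs or more was 18.3% against 13.8%.

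**Figure D5:**
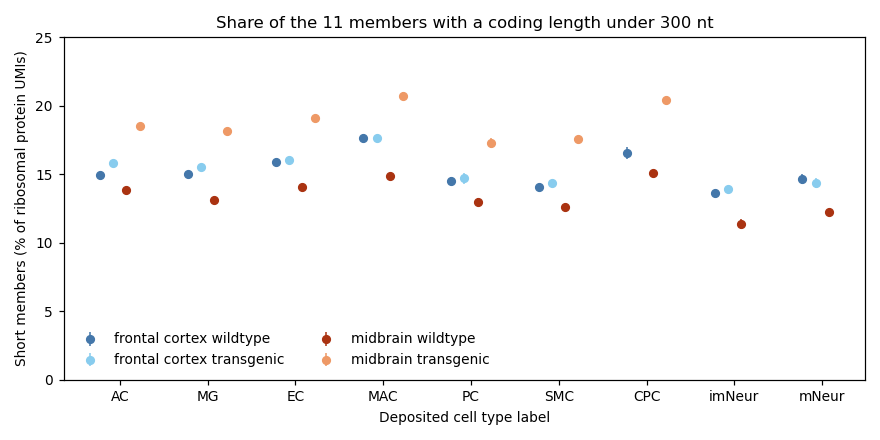
Share of the 11 genes under 300 nt among ribosomal protein UMIs (vertical axis, percent), by deposited type label, with exact 95% intervals for counting error. Each point is 1 library. Transgenic midbrain is highest and wildtype midbrain lowest in each of the types AC, MG, EC, MAC, PC and SMC, and the 2 frontal cortex libraries lie between them.

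Rps28 on chromosome 17 (33819027 to 33824562, minus strand) had the highest ratio of the members in midbrain astrocytes, microglia and endothelial cells. In microglia it stood at 1193 CPM in transgenic and 628 in wildtype midbrain, and 929.98 and 737 in frontal cortex. In endothelial cells the values were 880.2, 492, 653 and 645 CPM. Rps29 on chromosome 12 stood at 4527, 2811, 3690 and 3120 CPM in microglia and at 3485, 2305, 2621 and 2707 in endothelial cells. Both genes encode small proteins of the head of the small subunit. Rpl41 on chromosome 10 stood at 2510.3, 1655, 2006 and 1857 CPM in endothelial cells. In these microglial and endothelial values the 2 midbrain libraries lay on either side of the 2 frontal cortex libraries. That was not so in astrocytes. There Rps28 stood at 218, 125, 244 and 203 CPM in the same order, Rps29 at 679, 456, 766 and 734, and Rpl41 at 561, 412, 697 and 528. Other short genes were not shifted as far: genes at 200 CPM under 300 nt had median log2 ratios in midbrain of 0.01 in astrocytes (40 genes), 0.02 in microglia (25 genes), 0.12 in endothelial cells (50 genes), 0.13 in PC (51 genes), 0.02 in SMC (55 genes) and -0.05 in CPC (68 genes). In macrophages other short genes were higher too, with a median of 0.25 and 43 of 48 above 0, beside 0.62 for the 10 short members. By annotated mRNA length, the correlations across members were weaker, at -0.36, -0.45 and -0.45 in midbrain. Genotype and library cannot be told apart here, and the part of library preparation was not tested.

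The region comparison set midbrain against frontal cortex, where region and library coincide. Astrocytes had the lower share in midbrain, at 2.12% against 2.80% in wildtype (log2 ratio -0.40, interval -0.41 to -0.39) and 2.13% against 3.04% in transgenic (-0.51). In wildtype astrocytes 73 of 80 members were lower by 1.2 times and 0 higher, where 18.2% of all genes at 20 CPM and 32.6% of those at 200 CPM were lower. Rps28 (125 against 203 CPM, -0.70), Rps29 (456 against 734, -0.69) and Rpl35 (116 against 183, -0.66) were lowest, and Rps12 and Rpl37 followed. The smallest differences were those of Rps27l (102.02 against 100.4 CPM, 0.02), Rpl18 (-0.05), Rpl22l1 (-0.09), Rpl7l1 (-0.16) and Rps6 (-0.23). Microglia had 1 member, Rps12, higher and 0 lower by this rule (all genes, 7.77% and 10.5%), with a share of 8.93% against 8.24% (0.12). The share of transgenic microglia went the other way, at 9.57% against 9.85% (-0.04, interval -0.045 to -0.036), with 17 of 80 members above 0. By the 1.2 times rule 2 members were higher and 0 lower there (all genes, 8.44% and 9.33%). Wildtype endothelial cells had 0 higher and 1, Rps28, lower (all genes, 2.73% and 2.12%), with a share of 10.04% against 9.83%. Transgenic endothelial cells had 5 higher and 0 lower (all genes, 5.29% and 6.44%). Between the transgenic libraries Rps28 was the highest member in endothelial cells (0.43, against -0.39 in wildtype) and in microglia (0.36, against -0.23). In transgenic astrocytes Rps28 (-0.16) and Rps29 (-0.17) were among the highest members. The wildtype midbrain library enters this comparison and the genotype comparison above, so their values for the short members are not independent. Choroid plexus marker UMIs in astrocytes were 3656 CPM in wildtype midbrain and 30.02 in wildtype frontal cortex, and their part in the result was not tested.

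Other genes of the translation machinery were counted from fixed lists. In frontal cortex astrocytes 7 of 20 ribosome biogenesis genes at 20 CPM were higher by 1.2 times and 0 lower (median 0.24): Nop56 (88.2 against 61.4 CPM, 0.52), a core protein of box C/D particles, Mybbp1a (0.55), Ddx21 (0.49), Nolc1 (0.48), Gnl3 (0.47), Nop58 and Fbl. As given above, 16.3% of all genes were higher there and 14.3% lower. Of 41 initiation factor genes 10 were higher and 2 lower, and of 9 elongation genes 2 were higher, Eef2 (0.27), the translocation factor, and Eef1e1. Of 70 mitochondrial ribosomal protein genes, which belong to a separate ribosome, 9 were higher and 5 lower. The mitochondrial ribosomal counts were thus below the share over all genes. All 13 of 13 mitochondrially encoded genes were higher. In midbrain astrocytes 5 of 19 biogenesis genes were higher and 0 lower, 5 of 40 initiation genes higher and 0 lower, and of 8 elongation genes 0 in either direction, where 9.51% of all genes were higher and 6.54% lower. In frontal cortex microglia, where 40 of 80 ribosomal protein genes were higher, 2 of 23 biogenesis, 1 of 42 initiation and 1 of 9 elongation genes were, beside 6.15% of all genes. In midbrain microglia 7 of 23 biogenesis, 4 of 42 initiation and 0 of 9 elongation genes were, beside 6.63% of all genes.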

How the data were processed

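The authors deposited UMI counts per gene and cell (10x Genomics 3′ v3, per the labels' protocols) with a mitochondrial percent, a cluster and a type label per cell in the deposited cell tables. Cell Ranger 3.0.0, Seurat 3.1.5 and the mm10 genome are named per the submitters' processing notes, and how cells or doublets were filtered before deposit is not given in the sources used here. The members and lists were chosen with earlier results of these data known, and the coding length limit after its values were seen, following a trial of annotated mRNA length. Counts were summed over the cells of a type in each library and scaled to CPM. Shares and log2 ratios carry exact Clopper-Pearson 95% intervals for counting error only, since UMIs of 1 library are not replicates. No test between groups was possible with 1 library per group, so no p-value is given. Types needed 50 cells in a library, and no cell was removed. Genes named are the 8 highest and 8 lowest members in astrocytes, the 3 highest and 3 lowest ratios per type and region, those past 1.2 times in both regions, the 8 most raised in one type, the paralogs, the 5 extremes between regions, and 2 to 4 of a list, and further members of the short group chosen after their values were seen; some genes this rule takes in are not reported here. The ratio and the rule were tested on simulated counts. Alternatives were the total, the cell filter, the weighting of cells and clusters, the filter on low genes, and scaling with edgeR 4.0.16 (TMM) and DESeq2 1.42.0. Python 3.11.15 with scipy 1.17.1 was used.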

Additional observations from a re-analysis of the deposited data

Results flagged for a closer look

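In cells labelled PC the ribosomal protein share moved in opposite directions in the 2 regions, with a log2 ratio of transgenic to wildtype of -0.083 in frontal cortex and 0.096 in midbrain. Each interval of counting error left out 0, and each region has 1 library per genotype, so the difference between the regions was not tested. The shares were 4.93% and 5.22% in transgenic and wildtype frontal cortex and 5.49% and 5.14% in midbrain.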

How the results depend on the processing

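With 1 library per group no replicate could be left out. Of 78 values under other settings, 43 stayed within counting error (ratios) or within 1.5 times (counts, higher and lower together). Another 34 moved and 1, a ratio whose interval left out 0, turned. Direction was not part of the rule for counts. In frontal cortex astrocytes 10 higher and 0 lower became 5 and 2 with the marker filter, and 0 and 2 with clusters weighted alike. Counts with clusters weighted alike or with the mean of per-cell CPM used the fold and CPM limits without the interval. Of the 34, 2 values of the midbrain astrocyte share, whose interval included 0, also went below 0. The cause was not tested. In frontal cortex astrocytes the log2 ratio of the share (0.12) was 0.22 as a median over cells, 0.17 without mitochondrially encoded genes, 0.028 among cells of at least 500 genes and under 10% mitochondrial UMIs, 0.027 in cells with fewer than 4 UMIs of other types' markers and -0.080 with clusters weighted alike. The count of members past 1.2 times there (10) was 5 with TMM, 5 with DESeq2 size factors, 3 with the mitochondrial filter (2 higher, 1 lower) and 2 with clusters weighted alike, both lower in place of higher. In midbrain astrocytes the share ratio (0.01) was 0.046 as a median over cells, -0.0050 with the mitochondrial filter and -0.046 with clusters weighted alike, where the count (12) was 21. The marker filter left 7 and 4 midbrain astrocytes and was not run there. In frontal cortex microglia the share ratio (0.26) was 0.17 as a median over cells, 0.27 without mitochondrially encoded genes and 0.27 with the mitochondrial filter, and the count (40) was 12 when each cell had the same weight. The median over cells gave 0.058 in midbrain microglia and 0.024 in midbrain endothelial cells. In frontal cortex endothelial cells the share ratio without mitochondrially encoded genes was 0.052, and the count (2) was 1 with TMM and 1 with DESeq2 size factors. For wildtype midbrain against frontal cortex, astrocytes gave -0.33, -0.38 and -0.41, and microglia 0.041, 0.12 and 0.12, as a median over cells, without mitochondrially encoded genes and with the mitochondrial filter, and endothelial cells gave 0.036 without mitochondrially encoded genes. Alternatives for the short members were chosen after seeing the data. Their log2 ratio in midbrain was 0.28, 0.32 and 0.33 in astrocytes, microglia and endothelial cells with members under 500 nt of annotated mRNA, and 0.39, 0.43 and 0.42 without Rps29. No paired analysis was possible because each group has 1 library, so the groups share fewer than 2 replicate numbers. Depth limits Rpl3l and Rpl39l, which stayed under 1 CPM in astrocytes.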
